A study of Homo sapiens with 82 samples.

Results

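Mucin and goblet secretory genes are described here in HT29 cells, a human line from a colorectal adenocarcinoma. The 10 genes were listed by symbol for their roles, with earlier results of these data known, and no threshold on a value was used: the gel-forming mucins MUC2 (ENSG00000198788.7), MUC5AC (ENSG00000215182.6) and MUC5B (ENSG00000117983.12), the membrane-bound mucins MUC1 (ENSG00000185499.11), MUC12 (ENSG00000205277.5) and MUC13 (ENSG00000173702.3), the trefoil factors TFF1 (ENSG00000160182.2), TFF2 (ENSG00000160181.4) and TFF3 (ENSG00000160180.14), and AGR2 (ENSG00000106541.7). Each had 1 row among the 51838 genes of the count tables. RNA was sequenced in 32 libraries, 4 in each of 8 groups, from cells that were given a drug at 10 μM, or its carrier DMSO alone, for 24 h or 48 h, and the drugs were GW3965, T0901317 and rosiglitazone. GW3965 and T0901317 are synthetic agonists of the liver X receptors (LXR), rosiglitazone is a thiazolidinedione agonist of PPARG, and all groups were the same line, moved before treatment to phenol-red free medium with charcoal-treated serum, which lacks most steroid ligands. The methods of the study say that treatments were made in quadruplicate, but the labels do not say whether the 4 libraries of a group came from separate cultures, so every p-value measures the spread between these libraries, which may be technical.

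Goblet cells pack gel-forming mucins into granules and release them as the mucus layer that separates the epithelium of the gut from bacteria. MUC2 is the main mucin of colonic mucus, whereas MUC5AC is best known from the stomach and airway and MUC5B from the airway and salivary glands. Membrane-bound mucins form the glycocalyx on the cell surface, trefoil factors are small secreted peptides that act in repair of the mucosa, and AGR2 is a protein disulfide isomerase of the endoplasmic reticulum that is needed for MUC2 to be made.

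The start regions of MUC2, MUC13 and AGR2 are shown because these 3 genes fell with rosiglitazone at both times. Each sequence is the 250 bases before the annotated start, on the strand of the gene, from RefSeq on GRCh38.p14. Of the 10 genes, 5 were matched by symbol in the table of start regions, namely MUC1, MUC2, MUC12, MUC13 and AGR2.
MUC2, chr11:1074624-1074873, plus strand: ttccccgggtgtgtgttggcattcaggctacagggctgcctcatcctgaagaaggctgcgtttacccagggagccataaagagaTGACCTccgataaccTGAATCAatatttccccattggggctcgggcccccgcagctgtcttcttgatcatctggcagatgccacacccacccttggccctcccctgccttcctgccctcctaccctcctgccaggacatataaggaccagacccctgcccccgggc
MUC13, chr3:124934752-124935001, minus strand: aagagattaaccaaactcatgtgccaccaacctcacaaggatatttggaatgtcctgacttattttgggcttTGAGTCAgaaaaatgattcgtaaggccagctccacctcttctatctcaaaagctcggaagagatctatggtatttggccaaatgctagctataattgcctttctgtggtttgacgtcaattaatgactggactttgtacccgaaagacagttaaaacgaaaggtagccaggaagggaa
AGR2, chr7:16805000-16805249, minus strand: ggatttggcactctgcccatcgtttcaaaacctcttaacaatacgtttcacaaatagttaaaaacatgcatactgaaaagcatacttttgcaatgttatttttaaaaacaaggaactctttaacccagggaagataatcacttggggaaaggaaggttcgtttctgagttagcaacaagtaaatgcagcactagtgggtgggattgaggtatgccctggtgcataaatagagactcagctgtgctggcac

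Capitals mark matches to the AP1 motif TGANTCA and to the core motif of nuclear receptor sites, AGGTCA, each searched on both strands. The MUC13 region held the AP1 motif 178 bases before the start. The MUC2 region held the AP1 motif 151 bases before the start and, apart from it, the core motif on the opposite strand 166 bases before it. Neither was found in the AGR2 region. Of all 35116 start regions of this length in the table, 6.57% held the AP1 motif and 12.1% the core motif, so each match describes the letters and no more.

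Total counts ran from 21044798 to 51332656 per library, and the fits covered 21781 genes at 24 h, 22470 at 48 h and 23140 over all 32 libraries. All 10 genes passed the filter on low counts in each fit, but their depth differed widely, from 3 to 35 counts per library for TFF1 and from 5 to 112 for TFF2 up to between 4242 and 17757 for MUC5AC. The first GW3965 library of 24 h stood apart from the other 3 of its group, and the chi-square per degree of freedom between its counts and theirs reached 73.2, the highest of the 48 pairs of replicates, which began at 3.66. The groups of 48 h were not uniform either. There the third rosiglitazone library gave 53.1, 24.5 and 15.2 against the others of its group, and the third T0901317 library gave 36.4, 13.6 and 27.1. Levels are given as CPM, counts divided by a library size scaled over all 32 libraries, and they are not compared between genes because no transcript lengths were used. The repeats of mucin genes are alike between members of the family, and how the authors assigned such reads is not given in the sources used here, so mucin counts carry this uncertainty.

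Markers of the colorectal epithelium were present in every library, with a summed level between 14356 and 21338 CPM. By the mean of a group, 8 or 9 of 9 reached 1 CPM. At 48 h their sum was 17200 to 18294 CPM in DMSO and 16059 to 16743 with GW3965. It was 14356 to 16005 CPM with T0901317 and 18035 to 20962 with rosiglitazone. Of 13 markers of absorptive enterocytes, 3 or 4 reached 1 CPM by the mean of a group. Their summed level, nearly all of it from KRT20, was 253 to 273 CPM in DMSO at 24 h, 438 to 498 with GW3965, 335 to 361 with T0901317 and 672 to 702 with rosiglitazone. At 48 h it was 309 to 356, 445 to 493, 319.7 to 347 and 849 to 1542 CPM. Over the 32 libraries FABP1 ranged from 0.540 to 37.5 CPM, CA2 from 0.908 to 8.24 and SI from 0.233 to 7.07, while the other 9, ALPI and APOA1 among them, reached at most 0.679 CPM and APOA4 had 0 counts. The sum of 8 enteroendocrine markers at 48 h was 6.02 to 8.39 CPM in DMSO, 9.84 to 11.2 with GW3965, 5.54 to 7.41 with T0901317 and 1.80 to 2.91 with rosiglitazone, most of it from NEUROG3, while the hormone cell marker CHGA reached at most 0.408 CPM. That of 5 tuft cell markers, mostly TRPM5, AVIL and POU2F3, was 7.34 to 8.54, 11.6 to 16, 12.4 to 15 and 4.68 to 6.43 CPM in the same order, and DCLK1 reached at most 0.0547 CPM. The 5 Paneth cell markers, almost entirely LYZ, which is also on the list of 6 leukocyte markers, summed at 48 h to 458 to 482, 537 to 592, 678 to 749 and 456 to 498 CPM, while DEFA5 and DEFA6 had 0 counts and PTPRC at most 0.111 CPM. The leukocyte sum was between 453 and 752 CPM, that of 6 fibroblast markers between 3.75 and 10.0 CPM and that of 5 stem cell markers between 25.5 and 39.5 CPM, and the 3 endothelial markers in the tables, of 4 listed, summed to at most 0.586 CPM. The part of these differences in the results that follow was not tested, and in bulk RNA fewer secretory cells and less RNA per cell cannot be told apart.

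Rosiglitazone lowered MUC2, MUC13, TFF3 and AGR2 at both times. GW3965 and T0901317 moved at most 1 of the 10 genes at 24 h, and at 48 h they raised MUC13, lowered TFF1 and differed from each other in the gel-forming mucins. A gene passed at an adjusted p under 0.01 in the quasi-likelihood test of edgeR, adjusted over all genes of the fit. At 24 h, GW3965 raised 0 and lowered 1 of the 10 genes, where 1.86% of all genes tested rose and 0.868% fell. T0901317 raised 0 and lowered 0 (backgrounds 1.33% and 0.119%), with 2 at an unadjusted p under 0.05, where 2651 of all 21781 genes had one, and DESeq2 also called 0. Rosiglitazone raised 1 and lowered 4 (backgrounds 5.81% and 6.52%). After 48 h, GW3965 raised 2 and lowered 1 (backgrounds 16.1% and 17.5%), T0901317 raised 1 and lowered 5 (backgrounds 14% and 16.1%), and rosiglitazone raised 0 and lowered 5 (backgrounds 12.3% and 13.1%). With GW3965 at 48 h, the 3 of 10 that passed were close to the share of all genes.

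With the added requirement of a 2-fold change, the counts at 24 h were 0 with GW3965, 0 with T0901317 and 3 with rosiglitazone, against 0.537%, 0.28% and 2.18% of all genes. At 48 h they were 2, 2 and 5, against 5.77%, 5.4% and 5.86%. The median log2 fold change over the 10 genes with rosiglitazone was -0.54 at 24 h and -0.65 at 48 h, beside -0.02 and -0.01 over all genes tested. It was -0.06 and 0.05 with GW3965 and -0.10 and -0.31 with T0901317. Because 1 set of 4 DMSO libraries served the 3 drugs at each time, these comparisons are not independent and their values are only set side by side.

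**Figure D1:**
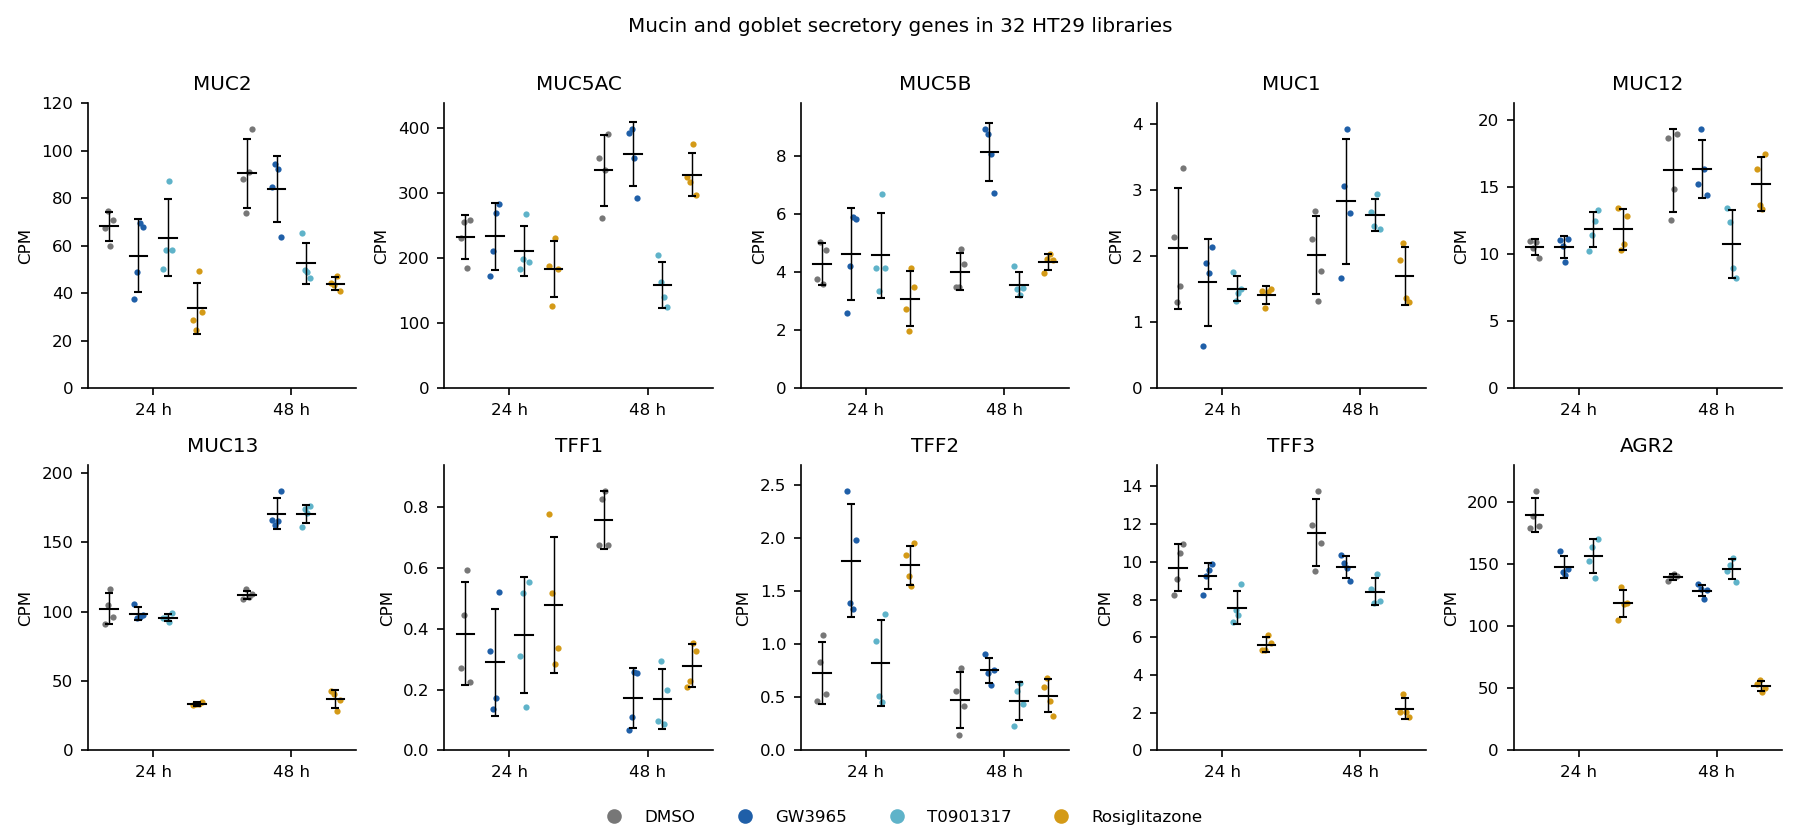
Level of each gene in CPM (linear axis from 0) in 32 HT29 libraries, by drug (colour) at 24 h and 48 h. Points are libraries, and the line and bars are the mean and SD of 4. The rosiglitazone libraries of MUC13, TFF3 and AGR2 lie below all DMSO libraries at both times, and those of MUC5B with GW3965 at 48 h lie above all others of that time.

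MUC2, the main gel-forming mucin of the colon, fell with rosiglitazone at both times and with T0901317 at 48 h. At 24 h the DMSO libraries had 67.3, 74.5, 60.0 and 70.7 CPM and the rosiglitazone libraries 28.7, 24.5, 49.2 and 32.2 CPM. The groups did not overlap, and MUC2 fell by 1.03 on the log2 scale (standard error 0.21, adjusted p = 0.00129), or 2.04-fold. At 48 h, DMSO libraries had 87.8, 73.9, 90.8 and 109 CPM, GW3965 libraries 84.8, 94.3, 92.3 and 63.7, T0901317 libraries 65.3, 49.6, 48.9 and 46.3 and rosiglitazone libraries 44.5, 43.6, 47.4 and 40.8. All T0901317 and rosiglitazone libraries were below all DMSO libraries, and those of GW3965 overlapped with them. The fall was 0.78 on the log2 scale (standard error 0.13, adjusted p = 4.57e-05) with T0901317 and 1.06 on the log2 scale (standard error 0.13, adjusted p = 2.24e-06) with rosiglitazone, while the difference with GW3965 was -0.12 (95% interval from -0.37 to 0.14, adjusted p = 0.482).

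MUC5AC, the gastric mucin, had a fall with T0901317 at 48 h alone among the 6 comparisons with DMSO. Its levels at 48 h were 354, 262, 335 and 391 CPM in DMSO, 393, 399.5, 355 and 292 with GW3965, 206, 164, 141 and 125 with T0901317 and 325, 317, 375 and 298 with rosiglitazone. The 4 T0901317 libraries were the lowest of the time point and apart from the other 12. MUC5AC fell by 1.08 on the log2 scale (standard error 0.14, adjusted p = 3.15e-06) with T0901317, or 2.11-fold. GW3965 and rosiglitazone gave log2 differences of 0.10 (95% interval from -0.19 to 0.38, adjusted p = 0.596) and -0.05 (95% interval from -0.33 to 0.23, adjusted p = 0.806). At 24 h the levels were 233 ± 34.4 CPM in DMSO (SD, n = 4), 234 ± 51.8 with GW3965, 212 ± 38.9 with T0901317 and 183 ± 43.1 with rosiglitazone, and all groups overlapped with DMSO.

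MUC5B, the gel-forming mucin of the airway, rose with GW3965 at 48 h. Its libraries had 8.94, 8.75, 8.08 and 6.74 CPM with GW3965 against 3.5, 3.48, 4.78 and 4.29 in DMSO, 4.21, 3.41, 3.23 and 3.46 with T0901317 and 3.97, 4.44, 4.63 and 4.42 with rosiglitazone. Every GW3965 library was above every other library of 48 h. The rise was 1.01 on the log2 scale (standard error 0.12, adjusted p = 1.85e-06), or 2.01-fold, and the differences with T0901317 and rosiglitazone were -0.17 (95% interval from -0.44 to 0.10, adjusted p = 0.317) and 0.10 (95% interval from -0.17 to 0.37, adjusted p = 0.604). At 24 h the means lay between 3.09 ± 0.943 CPM with rosiglitazone and 4.63 ± 1.58 CPM with GW3965 (SD, n = 4), and no comparison with DMSO passed.

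These 3 gel-forming mucins follow each other on chromosome 11 in the RefSeq gene order, and they varied together between libraries of the same group. Over the 32 libraries, each taken as its log2 deviation from its group mean, the Pearson correlation was 0.91 between MUC2 and MUC5AC, 0.87 between MUC2 and MUC5B and 0.82 between MUC5AC and MUC5B. The points share library and depth, and deviations of 4 libraries around their mean are not independent, so no p is given. The first GW3965 library of 24 h was lowest of its group in all 3, with deviations of -0.52 for MUC2, -0.41 for MUC5AC and -0.77 for MUC5B. The median deviation of 38 genes with very long transcripts, a list written after the data had been seen, was -0.07 in that library and had correlations of 0.62, 0.62 and 0.54 with MUC2, MUC5AC and MUC5B over the 32. It ranged from -0.16 to 0.13, and a median over many genes varies less than a single gene. Between GW3965 and T0901317 at 48 h the median log2 difference of these genes was 0.04, with single genes from -0.24 to 0.59. The part of transcript length in the mucin results was not tested.

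**Figure D2:**
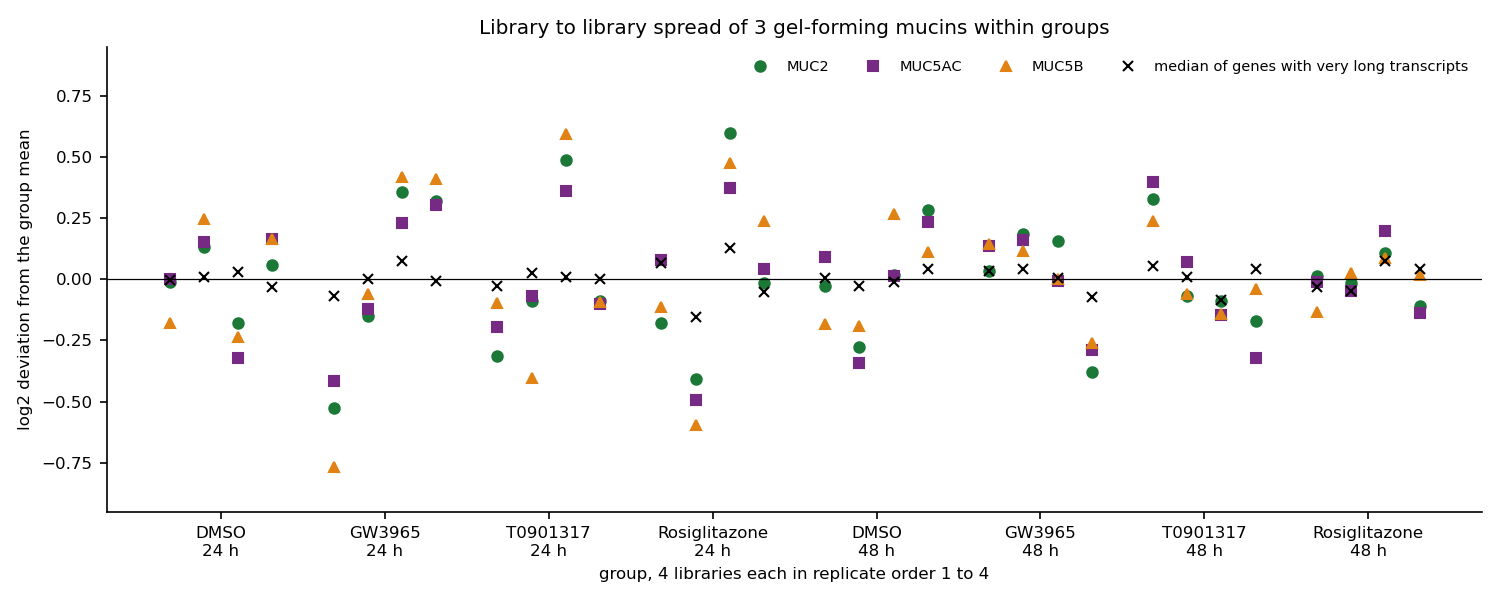
Log2 deviation of MUC2, MUC5AC and MUC5B from the mean of their group in each of 32 libraries, with the median of 38 genes with very long transcripts (crosses). The 3 mucins mostly deviate to the same side, by as much as -0.77. The crosses lie between -0.16 and 0.13. As medians over 38 genes they vary less than single genes, so the spreads are not comparable.

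Of the membrane-bound mucins, MUC13 responded to all 3 drugs at 48 h, and in opposite directions. MUC13, a transmembrane mucin that is abundant in colonic epithelium, fell with rosiglitazone from 91.1, 105, 117 and 96.2 CPM in the DMSO libraries of 24 h to 32.5, 33.1, 33.1 and 35.2 CPM. At 48 h the libraries had 109, 116, 110.4 and 112 CPM in DMSO, 42.5, 40.8, 28.2 and 36.5 with rosiglitazone, 166, 163, 166 and 187 with GW3965 and 161, 174, 171 and 176 with T0901317. Rosiglitazone libraries were below, and those of both LXR agonists above, every DMSO library. The fall with rosiglitazone was 1.62 on the log2 scale (standard error 0.07, adjusted p = 2.17e-12) at 24 h and 1.62 on the log2 scale (standard error 0.09, adjusted p = 9.28e-11) at 48 h, or 3.06-fold and 3.07-fold. The rise at 48 h was 0.60 on the log2 scale (standard error 0.09, adjusted p = 1.44e-05) with GW3965 and 0.61 on the log2 scale (standard error 0.09, adjusted p = 1.51e-05) with T0901317. At 24 h, MUC13 had differences of -0.05 (95% interval from -0.19 to 0.08, adjusted p = 0.794) with GW3965 and -0.09 (95% interval from -0.23 to 0.04, adjusted p = 0.64) with T0901317.

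MUC12, another surface mucin of the colon, had levels at 48 h of 18.6, 12.5, 14.8 and 18.9 CPM in DMSO and 13.5, 12.4, 8.96 and 8.22 CPM with T0901317. Its mean was 10.5 CPM at 24 h and 16.2 CPM at 48 h in DMSO, and 11.8 and 10.7 CPM with T0901317. At 48 h it was lower with T0901317 than in DMSO by 0.60 on the log2 scale (standard error 0.15, adjusted p = 0.00404), although 1 T0901317 library lay above the lowest DMSO library. This call was lost without replicate 1 or 4 of DMSO or replicate 3 or 4 of T0901317, with log2 values from -0.53 to -0.49 and adjusted p-values from 0.0175 to 0.0191. With GW3965 and rosiglitazone the levels were 16.3 ± 2.15 and 15.2 ± 2.02 CPM (SD, n = 4), with differences of 0.0012 (log2, standard error 0.15, adjusted p = 0.996) and -0.12 (log2, standard error 0.15, adjusted p = 0.596). MUC1, a surface mucin found on most epithelia, ranged between 0.634 and 3.92 CPM, and passed in no comparison with DMSO. Its largest difference from DMSO was -0.59 (95% interval from -1.22 to 0.03, adjusted p = 0.181) with rosiglitazone at 24 h, and at 48 h it was 0.49 (95% interval from -0.0048 to 0.99, adjusted p = 0.10) with GW3965.

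**Figure D3:**
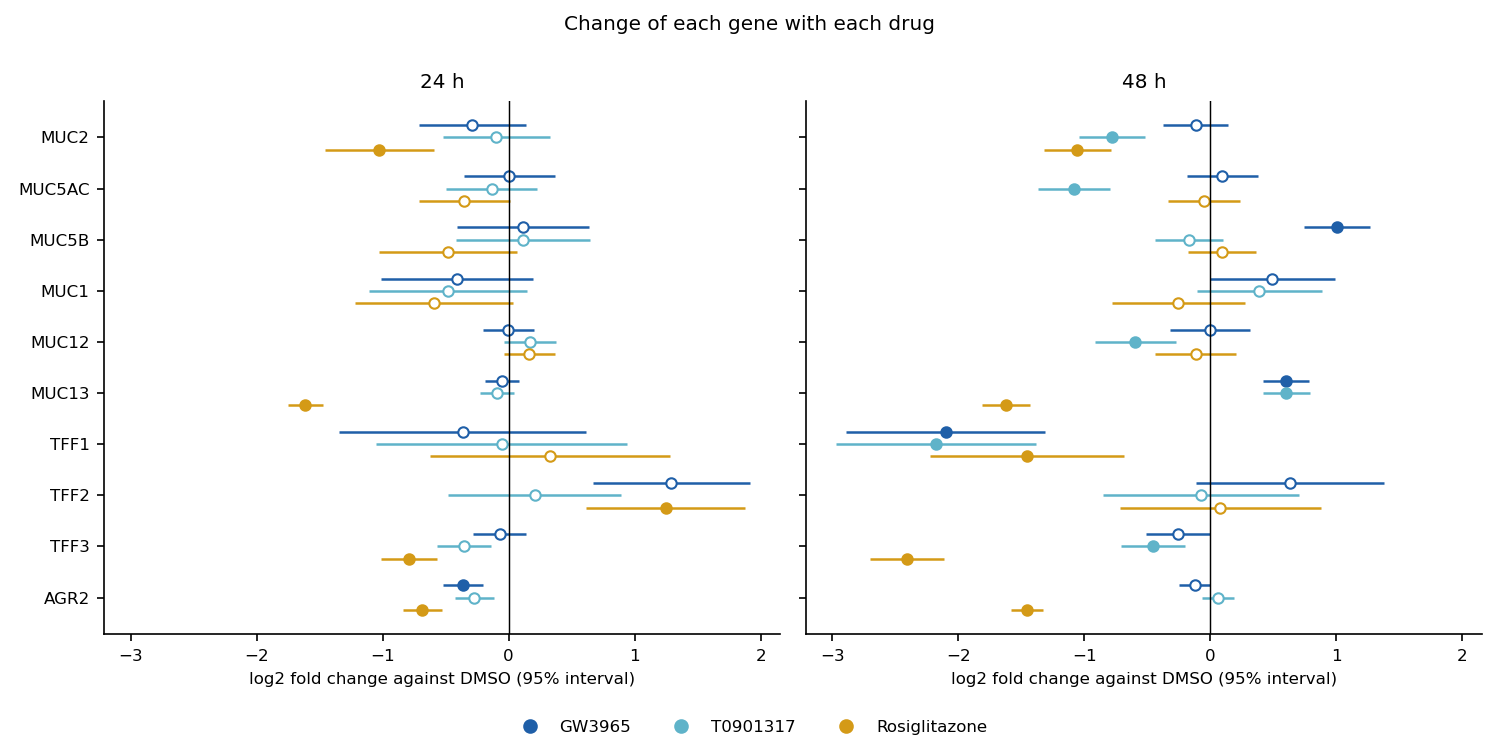
Log2 fold change of each gene with each drug (colour) against DMSO at 24 h and 48 h. Lines are 95% intervals and filled points passed at an adjusted p under 0.01. MUC13, TFF3 and AGR2 lie to the left of 0 with rosiglitazone at both times, and MUC5B and MUC13 to the right of 0 with GW3965 at 48 h.

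TFF3, the trefoil factor of intestinal goblet cells, showed its main response to rosiglitazone, and the response was larger at 48 h. Its levels at 24 h were 8.22, 9.11, 10.5 and 10.9 CPM in DMSO and 5.32, 5.31, 6.13 and 5.70 CPM with rosiglitazone. At 48 h they were 11.9, 9.50, 13.8 and 11 CPM in DMSO, 2.04, 3.01, 2.04 and 1.77 with rosiglitazone, 10.3, 9.95, 9.65 and 8.99 with GW3965 and 8.57, 7.83, 9.37 and 7.94 with T0901317. The rosiglitazone libraries were below all others at both times, and the T0901317 libraries of 48 h were below those of DMSO. With rosiglitazone TFF3 fell at 24 h by 0.79 on the log2 scale (standard error 0.11, adjusted p = 1.71e-05). At 48 h its fall was 2.41 on the log2 scale (standard error 0.14, adjusted p = 1.35e-10), so that its level was 1.73-fold and 5.31-fold lower than in DMSO. With T0901317 it fell by 0.46 on the log2 scale (standard error 0.12, adjusted p = 0.00498) at 48 h, a call that was lost without replicate 1 or 3 of DMSO or replicate 2 or 4 of T0901317, with log2 values from -0.45 to -0.37 and adjusted p-values from 0.0133 to 0.0267. With GW3965 the difference at 48 h was -0.25 (95% interval from -0.51 to -0.0021, adjusted p = 0.0943).

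TFF1 and TFF2, which are best known as trefoil factors of the stomach, rested on few counts and lie next to TFF3 on chromosome 21 in the RefSeq order. TFF1 had 0.676, 0.826, 0.854 and 0.678 CPM in the DMSO libraries of 48 h, against 0.0664, 0.108, 0.257 and 0.253 with GW3965, 0.0965, 0.295, 0.0872 and 0.198 with T0901317 and 0.209, 0.227, 0.354 and 0.327 with rosiglitazone. All 12 treated libraries were below all 4 DMSO libraries. TFF1 fell by 2.10 on the log2 scale (standard error 0.38, adjusted p = 1.36e-04) with GW3965, by 2.18 on the log2 scale (standard error 0.38, adjusted p = 1.10e-04) with T0901317 and by 1.46 on the log2 scale (standard error 0.37, adjusted p = 0.00403) with rosiglitazone. The last of these calls was lost without replicate 2 or 3 of DMSO or replicate 1 or 2 of rosiglitazone, with log2 values from -1.41 to -1.33 and adjusted p-values from 0.0125 to 0.0145. In the 24 h libraries, TFF1 ranged from 0.137 to 0.778 CPM, and no drug passed the test against DMSO. The TFF1 mean was 0.384 CPM at 24 h and 0.759 CPM at 48 h in DMSO. It was 0.290 and 0.171 CPM with GW3965, 0.381 and 0.169 CPM with T0901317 and 0.479 and 0.279 CPM with rosiglitazone.

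TFF2 had 0.466, 0.831, 1.09 and 0.533 CPM in DMSO at 24 h, 2.45, 1.40, 1.33 and 1.99 with GW3965, 1.04, 0.517, 0.460 and 1.29 with T0901317 and 1.84, 1.64, 1.55 and 1.95 with rosiglitazone. All GW3965 and rosiglitazone libraries were above all DMSO libraries, and those of T0901317 overlapped with DMSO. TFF2 rose by 1.25 on the log2 scale (standard error 0.30, adjusted p = 0.00553) with rosiglitazone, and its difference with GW3965 of 1.29 (95% interval from 0.67 to 1.91, adjusted p = 0.0119) did not pass. The call with rosiglitazone was lost without replicate 1, 2 or 4 of DMSO or replicate 1, 2 or 4 of rosiglitazone, with log2 values from 1.08 to 1.31 and adjusted p-values from 0.0112 to 0.0231. Conversely, the difference with GW3965 passed without replicate 3 of DMSO, replicate 3 of GW3965 or replicate 3 or 4 of T0901317, with log2 values from 1.29 to 1.57 and adjusted p-values from 0.00601 to 0.00975. At 48 h no drug moved TFF2 past the test, and its level in rosiglitazone libraries was 0.518 ± 0.156 CPM against 0.478 ± 0.265 in DMSO (SD, n = 4).

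AGR2, the chaperone of mucin folding, fell with rosiglitazone at both times. Its levels were 179.6, 189, 209 and 181 CPM in DMSO and 105, 132, 118 and 119 CPM with rosiglitazone at 24 h, and 136, 141, 142 and 140.4 CPM and 53.3, 56.9, 47.2 and 49.9 CPM at 48 h. The groups did not overlap at either time. AGR2 fell by 0.68 on the log2 scale (standard error 0.08, adjusted p = 1.64e-06) and then by 1.45 on the log2 scale (standard error 0.06, adjusted p = 1.74e-12), or 1.61-fold and 2.74-fold. With GW3965 at 24 h its libraries had 161, 143, 142 and 146 CPM, all below DMSO, and AGR2 fell by 0.36 on the log2 scale (standard error 0.08, adjusted p = 0.00519). This smaller call was lost without replicate 1, 2 or 3 of DMSO or replicate 2, 3 or 4 of GW3965, with log2 values from -0.38 to -0.31 and adjusted p-values from 0.0105 to 0.0305. The T0901317 libraries of 24 h were also all below DMSO, at a difference of -0.27 (95% interval from -0.43 to -0.11, adjusted p = 0.0647) that did not pass. At 48 h GW3965 and T0901317 gave differences of -0.12 (95% interval from -0.25 to 0.0003, adjusted p = 0.0978) and 0.06 (95% interval from -0.06 to 0.19, adjusted p = 0.428).

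GW3965 and T0901317, which act on the same receptors, were compared directly at 10 μM. At 24 h, 0 of the 10 genes were higher and 0 lower with GW3965 than with T0901317 (backgrounds 0.193% and 0.597%), with 2 at an unadjusted p under 0.05, where 2521 of all 21781 genes had one, and 0 by DESeq2. Those 2 were TFF2, at 1.08 (95% interval from 0.46 to 1.71, adjusted p = 0.0779), and TFF3, at 0.28 (95% interval from 0.07 to 0.50, adjusted p = 0.23). At 48 h, 3 were higher and 0 lower with GW3965 (backgrounds 5.03% and 3.32%), and they were the 3 gel-forming mucins. These 3 varied together between libraries of a group, with correlations from 0.82 to 0.91, so their calls are not independent of each other. MUC5AC was 2.26-fold higher with GW3965, a difference of 1.18 (95% interval from 0.89 to 1.47, adjusted p = 2.69e-05). MUC5B was also 2.26-fold higher, at 1.18 (95% interval from 0.92 to 1.43, adjusted p = 7.42e-06), and the libraries of the 2 drugs did not overlap in either gene. MUC2 was 1.59-fold higher, at 0.67 (95% interval from 0.41 to 0.93, adjusted p = 0.00123), with 1 GW3965 library below the highest T0901317 library.

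The other 7 genes did not pass between the LXR agonists at 48 h, and their intervals bound the difference. MUC13, which rose with both, had a difference of -0.01 (95% interval from -0.19 to 0.18, adjusted p = 0.979). TFF1, which fell with both, had 0.08 (95% interval from -0.84 to 0.99, adjusted p = 0.935), a wide interval. MUC12 had 0.60 (95% interval from 0.28 to 0.92, adjusted p = 0.0108) with libraries that did not overlap, and it passed without replicate 2 of DMSO, replicate 1 of T0901317 or replicate 1 or 3 of rosiglitazone, with log2 values from 0.60 to 0.73 and adjusted p-values from 0.00306 to 0.00925. AGR2 was lower in every GW3965 library than in every T0901317 library, at -0.19 (95% interval from -0.31 to -0.06, adjusted p = 0.0357). TFF3 had 0.20 (95% interval from -0.05 to 0.45, adjusted p = 0.285), TFF2 0.70 (95% interval from -0.02 to 1.43, adjusted p = 0.183) and MUC1 0.10 (95% interval from -0.37 to 0.58, adjusted p = 0.815).

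Rosiglitazone was also set directly against GW3965. At 24 h, 0 of the 10 genes were higher and 3 lower with rosiglitazone (backgrounds 4.6% and 6.09%). MUC13 was lower by 1.56 on the log2 scale (standard error 0.07, adjusted p = 2.59e-12), TFF3 by 0.72 on the log2 scale (standard error 0.10, adjusted p = 4.80e-05) and AGR2 by 0.32 on the log2 scale (standard error 0.08, adjusted p = 0.00454). The AGR2 call was lost without replicate 1, 2 or 4 of GW3965 or replicate 1, 3 or 4 of rosiglitazone, with log2 values from -0.33 to -0.27 and adjusted p-values from 0.01002 to 0.0238. MUC2 had -0.74 (95% interval from -1.17 to -0.31, adjusted p = 0.0163) and passed without replicate 1 of GW3965, replicate 3 of T0901317 or replicate 3 of rosiglitazone, with log2 values from -0.98 to -0.74 and adjusted p-values from 0.00164 to 0.00931. Without the first GW3965 library, which stood apart from its group, the MUC2 difference was -0.88 (adjusted p = 0.00164).

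At 48 h, 0 genes were higher and 5 lower with rosiglitazone than with GW3965 (backgrounds 22.4% and 22.6%). MUC13 was 4.65-fold lower, TFF3 4.45-fold and AGR2 2.51-fold, with log2 differences of -2.22 (95% interval from -2.41 to -2.02, adjusted p = 3.69e-13), -2.15 (95% interval from -2.45 to -1.86, adjusted p = 1.64e-10) and -1.33 (95% interval from -1.46 to -1.20, adjusted p = 1.51e-12). MUC2 and MUC5B were lower by 0.94 on the log2 scale (standard error 0.13, adjusted p = 2.88e-06) and 0.91 on the log2 scale (standard error 0.12, adjusted p = 3.17e-06). All 5 had rosiglitazone libraries entirely below those of GW3965, but how many of all genes were apart in this way was not counted. MUC5AC had -0.15 (95% interval from -0.43 to 0.14, adjusted p = 0.375) between the 2 drugs. MUC1 had -0.74 (95% interval from -1.25 to -0.24, adjusted p = 0.0135) and passed without replicate 3 of DMSO, replicate 1 of GW3965 or replicate 2 of rosiglitazone, with log2 values from -0.93 to -0.74 and adjusted p-values from 0.00169 to 0.00977.

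**Figure D4:**
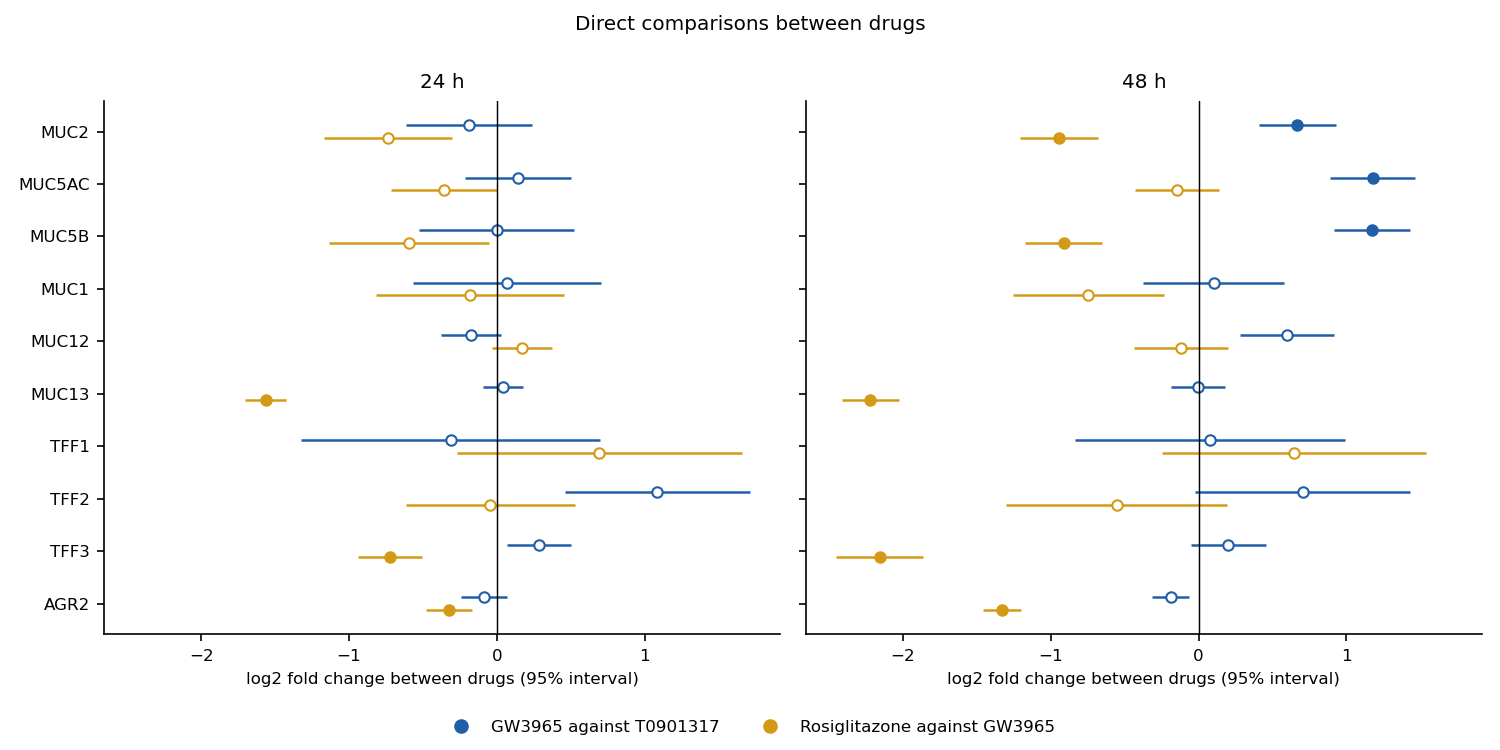
Log2 difference of each gene between 2 drugs at 10 μM, at 24 h and 48 h, with 95% intervals. Blue is GW3965 minus T0901317 and yellow is rosiglitazone minus GW3965, and filled points passed at an adjusted p under 0.01. At 48 h MUC2, MUC5AC and MUC5B are to the right of 0 in blue, and MUC13, TFF3 and AGR2 are far to the left in yellow.

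To ask whether a response differed between 24 h and 48 h, the difference of the 2 responses was tested over the 32 libraries. With GW3965, 1 gene was higher and 0 lower at 48 h than at 24 h (backgrounds 9.96% and 11.7%). This was MUC13, whose response was higher by 0.66 on the log2 scale (standard error 0.11, adjusted p = 2.90e-05). MUC5B had 0.90 (95% interval from 0.30 to 1.49, adjusted p = 0.0177), which did not pass, so its rise at 48 h was not shown to differ from the response at 24 h, although it did pass without replicate 3 or 4 of GW3965 at 24 h, with log2 values from 1.03 to 1.03 and adjusted p-values from 0.00835 to 0.00836. With T0901317, 2 were higher and 2 lower (backgrounds 7.49% and 9.95%). MUC13 was higher by 0.70 on the log2 scale (standard error 0.11, adjusted p = 1.37e-05) and AGR2 by 0.34 on the log2 scale (standard error 0.10, adjusted p = 0.00914), while MUC5AC was lower by 0.94 on the log2 scale (standard error 0.24, adjusted p = 0.00284) and MUC12 by 0.76 on the log2 scale (standard error 0.20, adjusted p = 0.00341).

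Several of these T0901317 calls were lost in fits with 1 library left out. The AGR2 call was lost in 20 of the 32 fits with 1 library left out, namely without replicate 2, 3 or 4 of DMSO at 24 h, replicate 2 or 4 of GW3965 at 24 h, replicate 1, 2 or 3 of T0901317 at 24 h, replicate 3 or 4 of rosiglitazone at 24 h, replicate 1, 2, 3 or 4 of DMSO at 48 h, replicate 2 or 4 of GW3965 at 48 h, replicate 1, 2 or 3 of T0901317 at 48 h or replicate 4 of rosiglitazone at 48 h, with log2 values from 0.28 to 0.35 and adjusted p-values from 0.0101 to 0.0284. That of MUC5AC was lost without replicate 3 of T0901317 at 24 h, with a log2 value of -0.81 and an adjusted p of 0.0112. That of MUC12 was lost without replicate 1 or 4 of DMSO at 48 h or replicate 4 of T0901317 at 48 h, with log2 values from -0.69 to -0.66 and adjusted p-values from 0.0102 to 0.0109. TFF1 had -2.12 (95% interval from -3.41 to -0.82, adjusted p = 0.012) and passed without replicate 3 of DMSO at 24 h, replicate 4 of GW3965 at 24 h, replicate 3 of T0901317 at 24 h or replicate 2 of T0901317 at 48 h, with log2 values from -2.49 to -2.12 and adjusted p-values from 0.00416 to 0.00932. With rosiglitazone, 0 genes were higher and 2 lower at 48 h (backgrounds 1.38% and 1.06%), and both were among the genes that fell at both times. TFF3 was lower by 1.60 on the log2 scale (standard error 0.18, adjusted p = 6.52e-07) and AGR2 by 0.75 on the log2 scale (standard error 0.10, adjusted p = 9.49e-06). The response of MUC13 to rosiglitazone differed by 0.01 (95% interval from -0.22 to 0.25, adjusted p = 0.971) between the times, and that of MUC2 by -0.02 (95% interval from -0.55 to 0.51, adjusted p = 0.984).

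The control cells also changed between the times. Between DMSO at 24 h and 48 h, 2 of the 10 genes rose and 1 fell (backgrounds 19.7% and 18.9%), and time and anything else that differed between the 2 sets of libraries cannot be told apart. MUC12 rose by 0.62 on the log2 scale (standard error 0.14, adjusted p = 3.14e-04) and MUC5AC by 0.53 on the log2 scale (standard error 0.17, adjusted p = 0.00916). AGR2 fell by 0.44 on the log2 scale (standard error 0.07, adjusted p = 2.79e-06). The libraries of the 2 times did not overlap in these 3 genes, but how many of all genes were apart in this way was not counted. The MUC5AC call was lost in 15 of the 32 fits with 1 library left out, namely without replicate 1, 2 or 3 of DMSO at 24 h, replicate 1, 2 or 4 of T0901317 at 24 h, replicate 1 or 4 of rosiglitazone at 24 h, replicate 1, 3 or 4 of DMSO at 48 h, replicate 1 or 3 of GW3965 at 48 h, replicate 2 of T0901317 at 48 h or replicate 2 of rosiglitazone at 48 h, with log2 values from 0.43 to 0.58 and adjusted p-values from 0.0101 to 0.0497.

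The patterns over the 8 group means were compared by Pearson correlation among the 14507 genes whose log2 CPM averaged 1 or more, as a description over 8 points that share libraries and DMSO. MUC5AC was most like RP11-144G6.12 (0.970), RMND5B (0.968) and SIK2 (0.942). TFF3 was most like SMPDL3B (0.973), KLK12 (0.970) and CBFA2T3 (0.967), and AGR2 was most like HSF2 (0.995), IKBIP (0.987) and ENTPD7 (0.986). Among the 8 genes other than TFF1 and TFF2, TFF3 and AGR2 had the highest correlation (0.91), followed by MUC5AC and MUC12 (0.86). TFF3 also lies next to ABCG1, a known LXR target, in the RefSeq gene order.

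Other genes of mucus were read from 5 lists written from general knowledge, and the median log2 change over all genes tested, beside which their medians can be read, was between -0.02 and 0.01 in the 6 comparisons with DMSO. The counts of each list stand beside the shares of all genes that rose and fell, which were 1.86% and 0.868% with GW3965, 1.33% and 0.119% with T0901317 and 5.81% and 6.52% with rosiglitazone at 24 h, and 16.1% and 17.5%, 14% and 16.1%, and 12.3% and 13.1% at 48 h. Among 13 other mucins, 12 were in the tables and 8 were tested, and rosiglitazone raised 2 and lowered 2 at 24 h and raised 2 and lowered 3 at 48 h. MUC17, a membrane-bound mucin next to MUC12 on chromosome 7, rose by 0.76 (adjusted p = 2.80e-04) and 1.38 (adjusted p = 3.09e-06) on the log2 scale with rosiglitazone. MUC20 fell with rosiglitazone by 1.06 (adjusted p = 1.79e-10) and 0.86 (adjusted p = 2.78e-05) and rose at 48 h with both GW3965, by 0.76 (adjusted p = 5.45e-05), and T0901317, by 0.90 (adjusted p = 8.88e-06). GW3965 raised 2 and lowered 0 at 48 h and raised 0 and lowered 1 at 24 h, and T0901317 raised 1 and lowered 1 at 48 h and moved 0 at 24 h, where 2 had an unadjusted p under 0.05 in edgeR, as did 2651 of all 21781 genes, and DESeq2 called 0. At 48 h the median log2 change of the list was 0.63 for GW3965, 0.12 for T0901317 and -0.07 for rosiglitazone.

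Most goblet cell products fell with rosiglitazone at 48 h, where 1 of 14 tested rose and 9 fell, with a median of -1.0. At 24 h the counts with rosiglitazone were 1 and 2 of 13. The counts at 48 h were 5 higher and 3 lower with GW3965 and 5 and 4 with T0901317, of which the 3 lower of 14 with GW3965 were near the 17.5% of all genes. At 24 h they were 1 and 1 and then 2 and 0. FCGBP, a large mucus protein that binds MUC2, also differed between the 2 LXR agonists. It had 195 ± 17.9 CPM in DMSO at 48 h, 304 ± 57.3 with GW3965, 104 ± 17.7 with T0901317 and 96.0 ± 17.5 with rosiglitazone (SD, n = 4). It rose by 0.64 (adjusted p = 9.14e-04) with GW3965 and fell by 0.91 (adjusted p = 3.33e-05) with T0901317 and by 1.04 (adjusted p = 1.05e-05) with rosiglitazone, and GW3965 was above T0901317 by 1.54 on the log2 scale (standard error 0.14, adjusted p = 1.71e-06). WFDC2, a secreted protease inhibitor, rose with every drug, most with T0901317 at 48 h, by 2.32 (adjusted p = 1.57e-13). SYTL2, which acts in granule release, fell by 1.99 (adjusted p = 1.94e-10) and 2.20 (adjusted p = 1.04e-12) with rosiglitazone. SYTL2 was also lower than in DMSO by 0.80 (adjusted p = 3.16e-05) with GW3965 at 24 h. At 48 h it was lower by 1.17 (adjusted p = 1.92e-09) with GW3965 and by 0.70 (adjusted p = 1.34e-06) with T0901317. The SYTL2 mean was 17.8 CPM at 24 h and 45.8 CPM at 48 h in DMSO, and 10.2 and 20.4 CPM with GW3965. It was 15.1 and 28.2 CPM with T0901317 and 4.51 and 10.1 CPM with rosiglitazone. BCAS1 fell at 48 h with rosiglitazone, by 1.19 (adjusted p = 1.48e-07), and rose with GW3965 and T0901317, by 0.84 (adjusted p = 4.07e-06) and 1.09 (adjusted p = 1.90e-07). SYTL4 rose with GW3965 and T0901317 at 48 h, by 1.07 (adjusted p = 4.52e-04) and 1.56 (adjusted p = 7.83e-06), and AGR3, which neighbours AGR2, fell with rosiglitazone at 48 h by 1.02 (adjusted p = 7.63e-04) and rose with T0901317 by 0.74 (adjusted p = 0.00417).

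Enzymes that glycosylate mucins fell in part with rosiglitazone and rose in part with the LXR agonists at 48 h. Of 26 tested, rosiglitazone raised 2 and lowered 10 at 24 h and raised 1 and lowered 12 at 48 h, with medians of -0.19 and -0.35. GW3965 raised 12 and lowered 5 at 48 h and T0901317 raised 11 and lowered 5, after 0 and 0 and then 1 and 1 at 24 h. The 5 lower of 26 were near the 17.5% and 16.1% of all genes that fell with these drugs at 48 h. In edgeR 11 of them had an unadjusted p under 0.05 with GW3965 at 24 h, where 3357 of all 21781 genes had one, and DESeq2 called 1. ST6GALNAC1, which adds sialic acid to the first sugar of mucin chains, had 4.47 ± 0.849 CPM in DMSO and 0.549 ± 0.146 CPM with rosiglitazone at 48 h (SD, n = 4). At 24 h ST6GALNAC1 had 2.24 ± 0.147 CPM in DMSO and 0.250 ± 0.155 CPM with rosiglitazone, and such low levels leave the size of its fall uncertain. It fell by 3.20 (adjusted p = 6.03e-07) and 3.02 (adjusted p = 2.19e-10) with rosiglitazone, and its differences with GW3965 and T0901317 at 48 h were 0.04 and -0.01, which did not pass. FUT2, a fucosyltransferase, fell at 48 h by 1.28 (adjusted p = 6.20e-07) with rosiglitazone and rose with both LXR agonists, by 1.30 (adjusted p = 4.44e-08) for GW3965 and 1.5 (adjusted p = 7.21e-09) for T0901317. The sulfotransferase CHST5 and the sialyltransferase ST6GALNAC2 had the same directions at 48 h, with log2 changes of -1.77 and -0.76 for rosiglitazone and 1.08 and 1.04 for GW3965, all of which passed. GALNT2, which starts mucin chains, rose with rosiglitazone by 1.04 (adjusted p = 2.51e-09), and the sulfate transporter SLC26A2 rose with T0901317 by 1.02 (adjusted p = 2.50e-04) at 48 h.

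Genes on the list of goblet lineage regulators were mostly lower with rosiglitazone. The list mixes roles, with NOTCH1, HES1 and Notch ligand genes beside ATOH1, SPDEF and KLF4, so its counts give no direction for the lineage. Of 18 tested, it raised 2 and lowered 11 at 24 h and raised 3 and lowered 12 at 48 h, with medians of -0.72 and -0.82. GW3965 raised 2 and lowered 3 at 24 h and raised 4 and lowered 7 at 48 h, and T0901317 raised 2 and lowered 2 and then raised 1 and lowered 10. ATOH1, the transcription factor that commits cells to the secretory lineage, had 5.40 ± 0.698 CPM in DMSO and 1.55 ± 0.145 CPM with rosiglitazone at 24 h, and 2.50 ± 0.411 and 0.121 ± 0.144 CPM at 48 h (SD, n = 4). It fell by 1.80 (adjusted p = 4.53e-09) and 4.32 (adjusted p = 5.08e-08) with rosiglitazone, and by 0.98 (adjusted p = 4.13e-05) with T0901317 at 24 h. The lowest rosiglitazone level of ATOH1 at 48 h was 0 CPM, so the size of that fall is uncertain. With rosiglitazone, the Notch ligand genes DLL1 and DLL4 fell at 48 h by 2.91 (adjusted p = 1.18e-11) and 1.85 (adjusted p = 9.33e-10), and HES6 by 1.90 (adjusted p = 3.18e-10). CREB3L1, a transcription factor of secretory cells, fell by 2.09 (adjusted p = 3.01e-10) and 2.70 (adjusted p = 6.72e-14) with rosiglitazone at 24 h and 48 h. KLF4, a factor of goblet cell maturation, went the other way and rose with rosiglitazone by 0.73 (adjusted p = 5.53e-06) and 1.07 (adjusted p = 3.68e-07), and at 24 h with GW3965 by 0.92 (adjusted p = 6.82e-07), while at 48 h it was lower than in DMSO with both LXR agonists, by 0.83 (adjusted p = 5.77e-06) for GW3965 and 1.46 (adjusted p = 6.30e-09) for T0901317. The KLF4 mean in DMSO was 21.2 CPM at 24 h and 74.0 CPM at 48 h. It was 40.1 and 41.8 CPM with GW3965 and 30.4 and 26.9 CPM with T0901317.

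Genes of the secretory endoplasmic reticulum were mostly higher with the LXR agonists than with DMSO at 48 h. Of 21 tested, GW3965 raised 13 and lowered 2 and T0901317 raised 13 and lowered 1 at 48 h, after 3 and 0 and then 1 and 0 at 24 h, and rosiglitazone raised 1 and lowered 1 at 24 h and raised 1 and lowered 2 at 48 h. The medians at 48 h were 0.32, 0.31 and -0.05. At 48 h the chaperone genes CALR, SDF2L1 and CRELD2 were higher with GW3965 than in DMSO by 1.31 (adjusted p = 3.74e-08), 1.64 (adjusted p = 7.10e-07) and 1.12 (adjusted p = 4.71e-07). From 24 h to 48 h the CALR mean went from 390 to 200 CPM in DMSO. It went from 519.7 to 499.5 CPM with GW3965 and from 466 to 463 with T0901317. In the same order, SDF2L1 went from 14.04 to 3.59 CPM, 15.1 to 11.3 and 13.8 to 7.97. CRELD2 went from 42.5 to 22.7 CPM, 51.6 to 49.7 and 45.4 to 42.4. These means fell in DMSO and did not rise with either LXR agonist. The stress sensor gene ERN1 fell by 1.68 (adjusted p = 5.34e-08) at 48 h with GW3965, and with T0901317 it fell by 1.79 (adjusted p = 2.72e-08). ERN2, its relative of mucus-secreting cells, fell with rosiglitazone by 1.02 (adjusted p = 2.65e-05) and 1.18 (adjusted p = 8.82e-09).

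**Figure D5:**
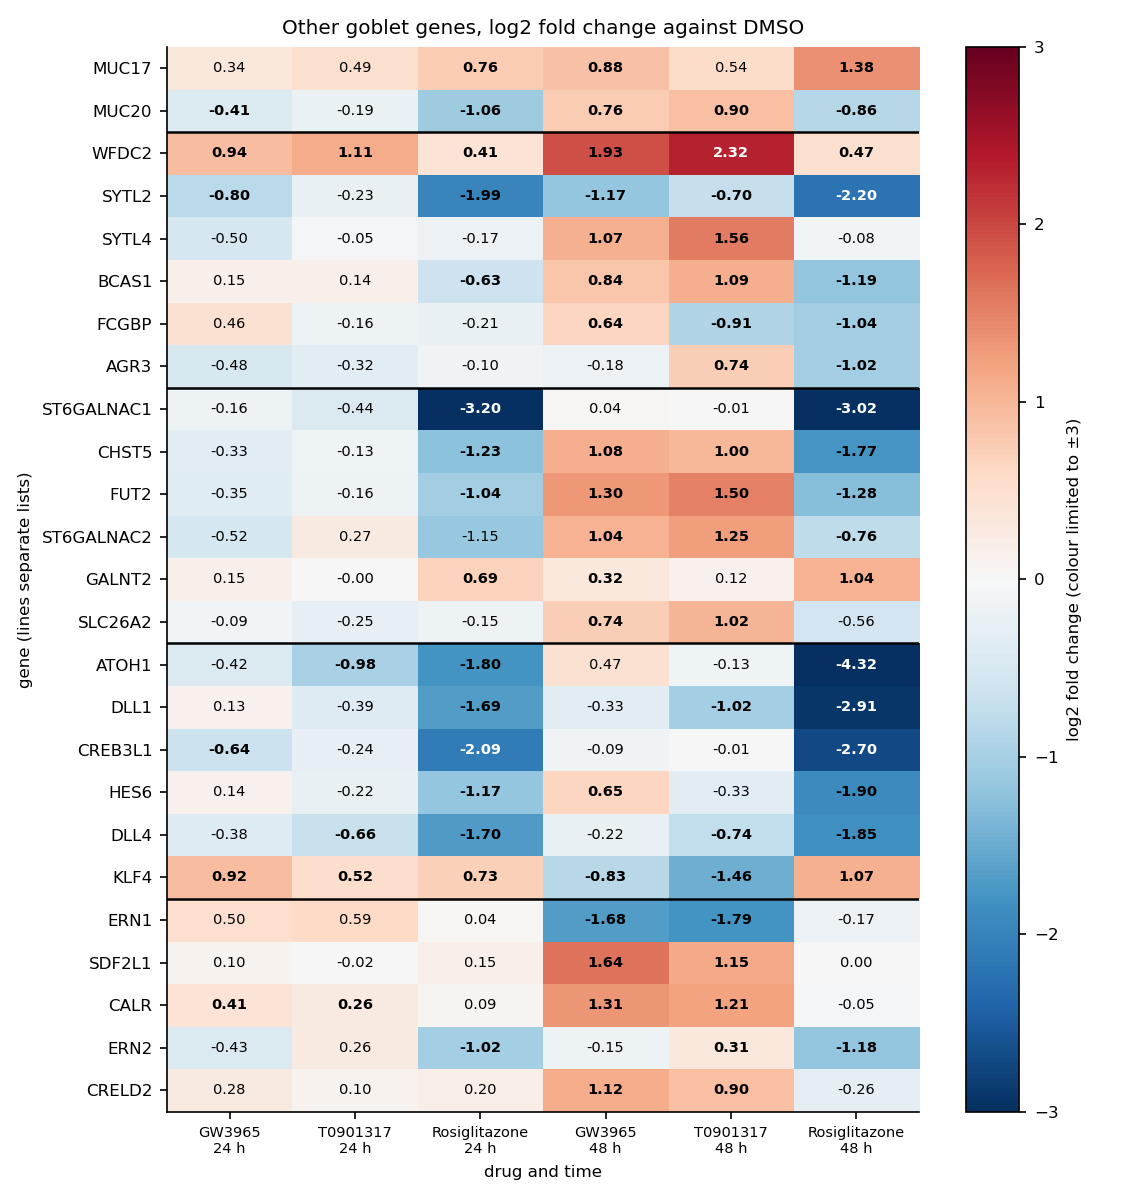
Log2 fold change against DMSO of the named genes from 5 lists (rows, in order other mucins, goblet cell products, mucin glycosylation, goblet lineage regulators and secretory endoplasmic reticulum) for each drug and time (columns). Bold numbers passed at an adjusted p under 0.01. The rosiglitazone columns are lowest for ATOH1 at 48 h (-4.32) and ST6GALNAC1 at 24 h (-3.20), while WFDC2 is highest with T0901317 at 48 h (2.32). The rosiglitazone means behind these lowest values were 0.121 CPM for ATOH1 and 0.250 CPM for ST6GALNAC1, so the size of both changes is uncertain.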

How the data were processed

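RNA was measured by paired-end sequencing of Nextera libraries of mRNA. Each time point has 1 deposited table of raw counts by gene, made by the authors, and its columns were matched to the labels. TopHat and Cufflinks are named in the submitters' processing notes with hg19, while the sources used here give neither the counting program nor its strand setting or annotation. Reads of overlapping genes may therefore be shared. The authors compared genes with DESeq. Peak files and all other samples of the series were not used here.

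Counts were fitted in edgeR 4.0.16 (R 4.3.3) with filterByExpr (minimum count 10), TMM scaling and the quasi-likelihood test, and p-values were adjusted over all genes tested by the Benjamini-Hochberg method. Each fit held the 16 libraries of 1 time, and interactions and DMSO at 48 h against 24 h came from a fit of all 32. A gene passed at an adjusted p under 0.01, and the rule of the study adds a 2-fold change. The standard error was the log2 fold change over the root of F. DESeq2 1.42.0, RLE and library size scaling, no filter, a replicate block, 2-group fits and leaving out each library were alternatives. The scripts were first tested on simulated counts with 200 changed genes.

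The 10 genes and the lists were chosen with earlier results of these data known. The text names the 10 genes and, each list, at most 6 genes with the largest log2 change among those with an adjusted p under 0.01, a 2-fold change and an average log2 CPM of at least 1 in any comparison of a drug with DMSO. The most alike genes were named for the mucin and the trefoil factor of highest mean CPM and for AGR2, 3 each. RefSeq start regions (GRCh38.p14) were read in Python 3.11.15 with pandas 2.3.3, and plots drawn with matplotlib 3.10.9.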

Additional observations from a re-analysis of the deposited data

Results flagged for a closer look

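In 2 of the 80 groups of 4 libraries, 1 library lay farther from the rest than Dixon's 95% limit allows, where chance gives about 1 group in 20. For MUC1 with rosiglitazone at 24 h, the lowest library had 1.21 CPM against 1.45, 1.48 and 1.49 CPM in the other 3. For MUC13 with GW3965 at 48 h, the highest library had 187 CPM, and the other 3 had 163, 166 and 166 CPM.

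The response to a drug differed between 24 h and 48 h, by the interaction test of edgeR, in 7 cases. MUC13 had a log2 difference of 0.66 with GW3965 and 0.70 with T0901317. With T0901317 the difference was also 0.34 for AGR2, -0.94 for MUC5AC and -0.76 for MUC12. With rosiglitazone it was -1.60 for TFF3 and -0.75 for AGR2.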

How the results depend on the processing

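Depth limits TFF1, TFF2 and MUC1 most, since few counts give wide intervals. Of 3679 single values under alternatives, 3568 kept their side of the threshold, 78 lost the call, 33 gained one and 0 calls reversed direction. Values that passed in neither setting were counted as kept whatever their sign, and some of them changed sign. For MUC5B with GW3965 against DMSO at 24 h, the log2 value was 0.11 in the main fit. It ranged from -0.02 to 0.32 in the fits with 1 library left out. Leaving out 1 library gave 69 of the losses and 20 of the gains. The cause of these changes was not tested, beyond the alternatives' own construction of fewer libraries or another threshold.

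The number of members that passed moved as follows. With a 2-fold change required, it went from 1 to 0 for GW3965 at 24 h, from 5 to 3 for rosiglitazone at 24 h, from 3 to 1 for rosiglitazone against GW3965 at 24 h, from 3 to 2 for GW3965 at 48 h, from 6 to 2 for T0901317 at 48 h, from 3 to 2 for GW3965 against T0901317 at 48 h, from 5 to 3 for rosiglitazone against GW3965 at 48 h, and for the interactions from 1 to 0 with GW3965, 4 to 0 with T0901317 and 2 to 1 with rosiglitazone. Between the DMSO groups it went from 3 to 0, and to 1 at 1.5-fold, where GW3965 at 24 h had 0. GW3965 at 24 h had 2 with no filter on low counts, 2 by DESeq2 and 0 in a fit of the 2 groups compared, and GW3965 against T0901317 at 48 h had 5 by DESeq2. For these fits, and for those below, the shares of all genes that passed are not given. A moved count may therefore go with a change over all genes.

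Leaving out 1 library gave 0 to 2 members for GW3965, 0 to 0 for T0901317 and 4 to 5 for rosiglitazone at 24 h, and 3 to 3, 4 to 6 and 4 to 5 at 48 h. For GW3965 against T0901317 it gave 0 to 0 at 24 h and 3 to 4 at 48 h, for rosiglitazone against GW3965 2 to 4 and 5 to 6, for the interactions 1 to 2 with GW3965, 2 to 4 with T0901317 and 2 to 2 with rosiglitazone, and for the DMSO groups 2 to 3. In calls of single genes, AGR2 between GW3965 and T0901317 at 48 h passed by DESeq2, at -0.18 (adjusted p = 0.0085), and under library size scaling, at -0.27 (adjusted p = 0.00821).

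Correlations between libraries gave no clear sign that the replicate numbers pair the samples, but they cannot exclude it. Same-numbered libraries of different groups had deviations that correlated between -0.41 and 0.49 at 24 h (median -0.02, 7 of 24 over 0.1) and between -0.17 and 0.30 at 48 h (median 0.02, 3 of 24). For libraries with different numbers the range was -0.51 to 0.41 at 24 h (median -0.005, 20 of 72 over 0.1). At 48 h it was -0.29 to 0.23 (median -0.005, 10 of 72). With the replicate number as a block, 0 members passed for GW3965 at 24 h, 4 for rosiglitazone at 24 h, 4 for rosiglitazone against GW3965 at 24 h, 2 for the GW3965 interaction and 3 for that of T0901317, and the other comparisons had the same number as without it.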
